A study of Mus musculus with 10 samples.

Results

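Transcripts of 8 peroxins that import proteins into the peroxisome matrix were followed in inguinal white adipose tissue, fat under the skin of the groin, from mice lacking PexRAP in adipose tissue. The genes are Pex5, Pex7, Pex13, Pex14, Pex2, Pex10, Pex6 and Pex26. They were taken by symbol from a table of 40501 gene identifiers, in which all 8 were found, and all 8 passed the filter on low counts that left 14913 genes. None of the 8 passed the edgeR test between genotypes after adjustment, and only 0.101% of all genes tested did. Unadjusted p-values of that test were under 0.05 for 4 of 8 and for 15.5% of all genes. Point estimates were positive for 6 and negative for 2, where 49.8% of all genes had positive ones.

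The 10 RNA-seq libraries, 1 per labelled sample, came from male C57/BL6J mice on chow. Control samples (replicates 2, 3, 5, 7 and 8) were Cre-negative, and PexRAP-AKO samples (replicates 1, 2, 3, 5 and 6) were Cre-positive. The labels give both a chow period of 8 weeks and an age of 8 weeks. The Cre driver, the deleted exons and whether Control mice carry the unrecombined allele are not stated by the sources used here. The labels do not say that each sample is a separate mouse. If samples of a group are not, the p-values measure only the spread between those samples. PexRAP, encoded by Dhrs7b, is a reductase of the ether lipid pathway that begins inside peroxisomes.

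Peroxisomes have no DNA and take up their matrix enzymes, already folded, from the cytosol. Pex5 is the receptor for enzymes with a C-terminal signal (PTS1), and Pex7 is the receptor for the few with an N-terminal signal (PTS2). Cargo-loaded receptors dock at Pex13 and Pex14 on the membrane. Pex2 and Pex10 are subunits of the RING ubiquitin ligase that marks Pex5, and the complex of the ATPase Pex6, anchored by Pex26, pulls it back out for another round. Loss of any of these proteins impairs matrix import, and adipocytes use peroxisomes for ether lipid synthesis and fatty acid oxidation.

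Libraries held 11274865 to 19881168 counts. Dhrs7b was lower in all 5 PexRAP-AKO libraries than in any Control (log2 fold change -2.05, SE 0.12, edgeR adjusted p = 1.54e-05). All 10 white adipocyte markers were detected, 8 with a negative and 2 with a positive fold change. They summed to 34040 to 44990 CPM (counts scaled to library size) in Control and 33140 to 42460 in PexRAP-AKO. Other cell types varied between libraries. Brown adipocyte markers, 13 of 15 with a positive fold change, summed to 845 to 2974 CPM in Control and 1451 to 3783 in PexRAP-AKO. Skeletal muscle markers, 12 of 12 negative, summed to 52.0 to 1371 CPM in Control and 53.4 to 154 in PexRAP-AKO. Endothelial markers, 8 of 8 negative, summed to 885.6 to 1078 CPM in Control and 665.9 to 884.2 in PexRAP-AKO, which nearly touch. Their mean log2 CPM overlapped at the edge, at 6.59 to 6.85 in Control and 6.20 to 6.60 in PexRAP-AKO. Groups did not overlap for 1 of the 8 genes, against 3.41% of all genes. T cell markers, all 7 tested with a positive fold change, summed to 7.97 to 15.05 CPM in Control and 10.08 to 117.1 in PexRAP-AKO, highest in replicate 6. Their mean log2 CPM was 3.64 in that library and 0.25 to 1.14 in the other PexRAP-AKO libraries, against -0.06 to 0.80 in Control. B cell markers, all 6 tested with a positive fold change, summed to 5.04 to 60.9 CPM in Control and 7.15 to 122.1 in PexRAP-AKO. Macrophage markers, 4 positive and 3 negative, summed to 535.2 to 965.5 and 462.3 to 1094 CPM. Mammary and skin epithelium markers summed to 0.43 to 6.91 CPM in Control and reached 37.0 in PexRAP-AKO, with none of 6 passing the filter. No marker list had a gene at 0 in all libraries. No marker passed edgeR's threshold. An unadjusted edgeR p under 0.05, which 15.5% of all genes had, was found for 7 muscle, 4 endothelial and 1 white adipocyte markers, all lower in PexRAP-AKO. The same held for 4 T cell markers, all higher, and for 5 brown adipocyte markers, 4 higher and 1 lower. DESeq2 called 1 marker, Cfd, and 2.94% of all genes. In bulk tissue, fewer cells of a type and less RNA per cell cannot be told apart.

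Against this background, no import peroxin passed the threshold between genotypes, and their fold changes were similar in size to those of all genes. By edgeR's quasi-likelihood test with Benjamini-Hochberg adjustment over all genes, 0 of 8 passed an adjusted p of 0.05 (adjusted p = 0.229 to 0.87), where 0.101% of the 14913 genes did. At an unadjusted p under 0.05 there were 4 of 8, namely Pex7, Pex14 and Pex2 with positive and Pex26 with negative fold changes. Among all genes 15.5% did so, 9.01% positive and 6.44% negative. DESeq2 called 0 of 8 and 2.94% of all genes. Groups did not overlap for 1 of 8, Pex14, against 3.41% of all genes, 2.08% with PexRAP-AKO higher. The median log2 fold change was 0.10 over the 8 and -0.0007 over all genes tested. In size, without regard to sign, the median was 0.13 for the 8 and 0.12 for all genes.

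**Figure D1:**
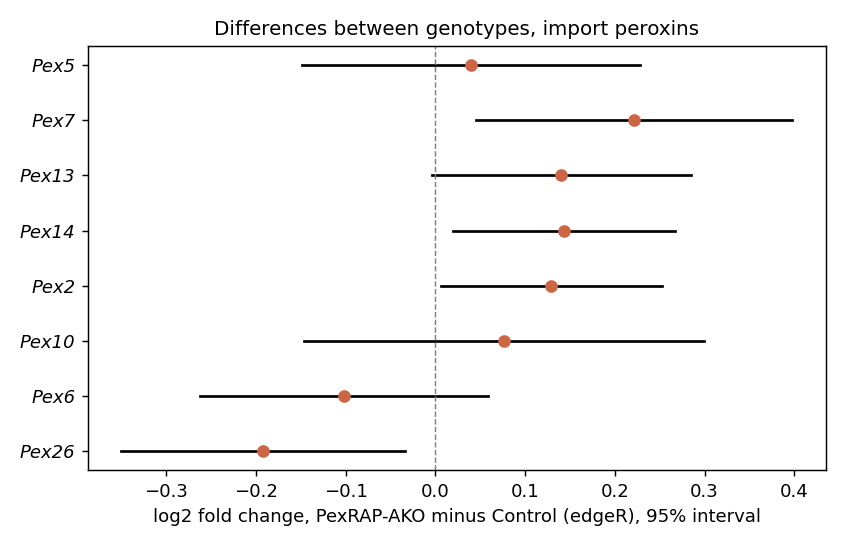
Log2 fold change of PexRAP-AKO against Control from edgeR (x axis) for the 8 import peroxins (points), with 95% intervals as lines and 0 as a dashed line. The intervals of Pex7, Pex14 and Pex2 lie above 0 and that of Pex26 below it, but all adjusted p-values are 0.229 or higher.

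Stretches of 250 bases before the RefSeq start (GRCm38.p6) are printed for 4 members: Pex7 and Pex14, with the lowest p among positive fold changes, and Pex26 with its partner Pex6, the 2 members with negative ones. They show where these genes differ in letters at their starts. Each reads 5′ to 3′ on the gene's strand, with exact motif matches on either strand in capitals.
Pex7, chr10:19907675-19907924, minus strand: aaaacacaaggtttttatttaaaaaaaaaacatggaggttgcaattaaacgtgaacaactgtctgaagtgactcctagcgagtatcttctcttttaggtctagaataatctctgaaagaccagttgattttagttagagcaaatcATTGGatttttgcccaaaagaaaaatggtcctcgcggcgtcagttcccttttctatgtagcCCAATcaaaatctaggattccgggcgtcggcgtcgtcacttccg
Pex14, chr4:149099844-149100093, minus strand: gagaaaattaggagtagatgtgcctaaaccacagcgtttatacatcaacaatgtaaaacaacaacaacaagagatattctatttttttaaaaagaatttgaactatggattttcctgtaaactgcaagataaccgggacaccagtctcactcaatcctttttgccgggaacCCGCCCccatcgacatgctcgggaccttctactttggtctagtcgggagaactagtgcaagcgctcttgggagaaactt
Pex6, chr17:46711226-46711475, plus strand: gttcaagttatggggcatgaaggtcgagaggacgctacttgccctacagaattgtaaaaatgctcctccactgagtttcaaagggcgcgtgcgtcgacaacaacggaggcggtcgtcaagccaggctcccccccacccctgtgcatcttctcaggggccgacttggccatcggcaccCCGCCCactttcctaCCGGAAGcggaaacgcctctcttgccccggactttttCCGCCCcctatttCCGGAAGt
Pex26, chr6:121183417-121183666, plus strand: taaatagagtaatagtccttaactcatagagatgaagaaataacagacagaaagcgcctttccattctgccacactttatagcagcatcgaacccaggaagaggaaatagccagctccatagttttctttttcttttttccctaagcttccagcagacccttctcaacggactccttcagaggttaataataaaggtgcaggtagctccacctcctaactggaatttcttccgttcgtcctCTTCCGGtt

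The table held 9 such promoters for 7 of the 8 members, Pex2 being the exception. Of the 3 for Pex5, a pair overlap. The ETS motif CCGGAAG lay in 2 of the 9, those of Pex6 and Pex26, and in 6.91% of all 32851 promoters searched over the same 250 bases. In Pex26 it ended 3 bases before the start. Pex6 held it in a pair of places, 58 to 52 and 8 to 2 bases before the start. The CCAAT box, CCAAT, was found in Pex7 and in 2 of 3 promoters of Pex5, and in 33.8% of all promoters. The GC box, GGGCGG, stood in 6 of the 9, belonging to Pex5, Pex6, Pex10, Pex13 and Pex14, and in 32.7% of all. The cAMP element TGACGTCA was in Pex13 alone among the members and in 1.55% of all promoters. No member promoter held the E-box CACGTG (6.02% of all), the PPAR direct repeat, 2 copies of AGGTCA with 1 base between them (0.0335%), or the sterol element TCACNCCAC (1.05%). None of these motifs overlapped another, other than 2 GC boxes of Pex13 that share a base. A match in these windows is a description of letters.

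The receptors came first in the pathway. Pex5 (ENSMUSG00000005069, chromosome 6, 124396816 to 124415067, GRCm38) had the highest level of the 8 per kilobase of exon. In Control replicates 2, 3, 5, 7 and 8 it stood at 131.1, 144.1, 108.9, 132.9 and 116.3 CPM. In PexRAP-AKO replicates 1, 2, 3, 5 and 6 it stood at 143.4, 136.7, 117.2, 119.5 and 133.9 CPM. The groups overlapped over nearly their whole range, at 126.7 ± 14.0 CPM among Controls and 130.1 ± 11.3 among PexRAP-AKO libraries (SD, n = 5 each). The log2 fold change was 0.04 (95% interval -0.15 to 0.23, edgeR adjusted p = 0.87). That interval spans folds of 0.902 to 1.17, so larger changes in total Pex5 transcript fall outside it. Counts per gene do not separate the Pex5 splice forms, of which only the longer one binds Pex7.

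Pex7 (ENSMUSG00000020003, chromosome 10, 19853900 to 19907689) showed the highest positive estimate. Control replicates 2, 3, 5, 7 and 8 had 29.1, 35.6, 30.1, 25.8 and 28.9 CPM. PexRAP-AKO replicates 1, 2, 3, 5 and 6 had 34.9, 35.9, 36.6, 32.5 and 34.6 CPM. All 5 PexRAP-AKO libraries lay above the Control median, and Control replicate 3 alone among Controls reached into their range. Means were 29.9 ± 3.57 and 34.9 ± 1.55 CPM (SD, n = 5 each). The log2 fold change was 0.22 (SE 0.08, 95% interval 0.04 to 0.40, edgeR adjusted p = 0.229), which does not pass. Without Control replicate 3 it was 0.29 (edgeR adjusted p = 0.0907), and in the fit that adjusts for the brown adipocyte score 0.17 (edgeR adjusted p = 0.655). Of all genes tested, 27.4% had a fold change further from 0 than that of Pex7.

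The docking proteins Pex13 and Pex14 form the membrane site at which the receptors arrive. Pex14 (ENSMUSG00000028975, chromosome 4, 148960535 to 149099876) stood at 58.4, 57.8, 52.9, 56.1 and 49.0 CPM in Control replicates 2, 3, 5, 7 and 8. It stood at 59.7, 62.9, 60.7, 59.9 and 59.7 CPM in PexRAP-AKO replicates 1, 2, 3, 5 and 6. Each PexRAP-AKO library was above each Control library, by a gap smaller than the spread among Controls. Means were 54.9 ± 3.91 and 60.6 ± 1.36 CPM (SD, n = 5 each), and the log2 fold change was 0.14 (SE 0.06, 95% interval 0.02 to 0.27, edgeR adjusted p = 0.257). The separation held with DESeq2 size factors, where Control reached 58.8 CPM and PexRAP-AKO began at 59.5 CPM. It also held with upper-quartile scaling, at 59.0 and 59.6 CPM. The separation was lost when libraries were scaled by total counts alone, where Control reached 59.4 CPM and PexRAP-AKO began at 58.3 CPM, and the log2 fold change was 0.07. The antisense gene Gm17029 covers 28.3% of the Pex14 exon length, and without stated strand their reads cannot be told apart. Gm17029 had 576 counts in all libraries together against 8201 for Pex14.

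Pex13 (ENSMUSG00000020283, chromosome 11, 23646479 to 23665959) came next after Pex5 in level per kilobase of exon. Its levels were 126.8, 125.4, 106.8, 126.7 and 114.5 CPM in Control replicates 2, 3, 5, 7 and 8. They were 143.9, 134.7, 132.0, 123.7 and 127.0 CPM in PexRAP-AKO replicates 1, 2, 3, 5 and 6. In PexRAP-AKO, 4 of 5 libraries exceeded the highest Control and replicate 5 fell among the Controls. The log2 fold change was 0.14 (SE 0.07, 95% interval -0.0041 to 0.28, edgeR adjusted p = 0.336). Control replicates 5 and 8 were the lowest libraries for both Pex13 and Pex14.

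**Figure D2:**
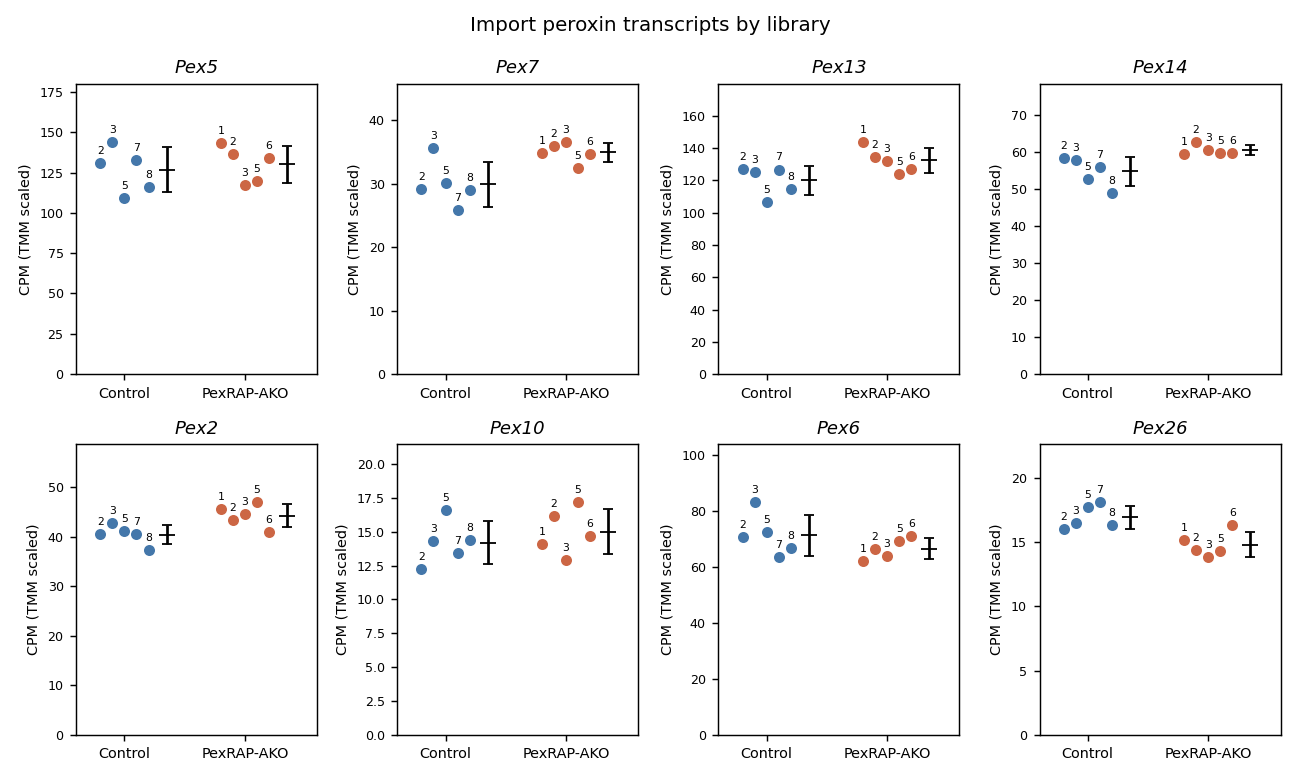
Level of each import peroxin in CPM after TMM scaling (y axes from 0) in each Control (blue) and PexRAP-AKO (orange) library, labelled by replicate number, with mean ± SD (n = 5) in black. Only for Pex14 does every PexRAP-AKO library (59.7 to 62.9) lie above every Control library (49.0 to 58.4).

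The RING ligase subunits Pex2 and Pex10 differed from each other in precision. Pex2 (ENSMUSG00000040374, chromosome 3, 5560188 to 5576239) was at 40.5, 42.7, 41.1, 40.5 and 37.4 CPM in Control replicates 2, 3, 5, 7 and 8. In PexRAP-AKO replicates 1, 2, 3, 5 and 6 it was at 45.6, 43.3, 44.5, 46.9 and 41.0 CPM. Replicate 6 fell among the Controls and the other 4 lay above them. The log2 fold change was 0.13 (SE 0.06, 95% interval 0.006 to 0.25, edgeR adjusted p = 0.304). Pex10 (ENSMUSG00000029047, chromosome 4, 155067016 to 155072433) had only 144 to 331 counts per library and ranged from 12.2 to 16.6 CPM in Control and from 12.9 to 17.2 CPM in PexRAP-AKO. The groups overlapped, and its log2 fold change of 0.08 had the widest interval of the 8 (-0.15 to 0.30, edgeR adjusted p = 0.768).

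The export complex held both members with negative estimates. Pex26 (ENSMUSG00000067825, chromosome 6, 121183667 to 121198837), the membrane anchor, was at 16.0, 16.5, 17.7, 18.1 and 16.3 CPM in Control replicates 2, 3, 5, 7 and 8. It was at 15.1, 14.4, 13.8, 14.3 and 16.3 CPM in PexRAP-AKO replicates 1, 2, 3, 5 and 6. In PexRAP-AKO, 4 of 5 libraries lay below the lowest Control, and replicate 6, the library with the highest T cell markers, lay within the Control range. Means were 16.9 ± 0.91 and 14.8 ± 0.97 CPM (SD, n = 5 each). The log2 fold change was -0.19 (SE 0.07, 95% interval -0.35 to -0.03, edgeR adjusted p = 0.241). It was -0.23 without PexRAP-AKO replicate 6 (edgeR adjusted p = 0.185) and -0.26 with total counts alone (edgeR adjusted p = 0.139).

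Pex6 (ENSMUSG00000002763, chromosome 17, 46711463 to 46725541), an ATPase of the complex, had 70.8, 83.1, 72.6, 63.5 and 66.8 CPM in Control replicates 2, 3, 5, 7 and 8. PexRAP-AKO replicates 1, 2, 3, 5 and 6 had 62.2, 66.3, 63.8, 69.4 and 71.1 CPM. The groups overlapped, and Control replicate 3 stood highest of all 10. Its log2 fold change was -0.10 (SE 0.07, 95% interval -0.26 to 0.06, edgeR adjusted p = 0.542), and -0.04 without Control replicate 3.

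Spread between libraries was set beside counting error. Counting error alone gives a coefficient of variation of 6.43% in Control and 7.21% in PexRAP-AKO for Pex26, whose libraries varied by 5.39% and 6.56%. For Pex5, with 1330 to 2862 counts per library, counting error gives 2.35% and 2.44%, and the libraries varied by 11.1% and 8.71%. Spread between Pex26 libraries was thus no wider than counting error, and that between Pex5 libraries was wider. Pex10, at a similar depth to Pex26, varied by 11.3% and 11.2% against counting errors of 7.09% and 7.17%. Pex7 varied by 11.9% in Control and 4.43% in PexRAP-AKO against 4.89% and 4.69%. Standard errors of the 8 fold changes ran from 0.06 to 0.10 on the log2 scale, below the median of 0.12 over all genes. Over the 8, the 95% intervals together spanned folds of 0.785 to 1.32.

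Levels per kilobase of exon placed the members in an order. In Control, Pex5 came first at 32.1 ± 3.56 CPM per kilobase, above 92.8% of genes tested, followed by Pex13 (25.9 ± 1.94), Pex6 (18.8 ± 1.96) and Pex2 (17.8 ± 0.85). Pex14 (8.75 ± 0.62), Pex10 (4.30 ± 0.49), Pex26 (2.98 ± 0.16) and Pex7 (2.47 ± 0.30) were lower (SD, n = 5). Neighbours in this order had ranges that did not overlap in Control, apart from Pex6 with Pex2 and Pex26 with Pex7. In PexRAP-AKO the same 2 neighbouring pairs overlapped, as did Pex5 with Pex13, and Pex2 and Pex7 had means above those of Pex6 and Pex26. The order depends on the length used. With the longest principal transcript in place of all exons, Pex14 had 27.3 ± 1.95 CPM per kilobase and came next after Pex13, since its merged exons span 6272 bases and that transcript 2006.

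Ratios within a library do not depend on scaling between libraries, and were taken as a description with no test. The log2 ratio of Pex5 to Pex7 was 2.17, 2.02, 1.86, 2.37 and 2.01 in Control replicates 2, 3, 5, 7 and 8 and 2.04, 1.93, 1.68, 1.88 and 1.95 in PexRAP-AKO replicates 1, 2, 3, 5 and 6. The means, 2.08 ± 0.19 and 1.90 ± 0.13 (SD, n = 5 each), differed by -0.19, and the groups overlapped. For the docking pair Pex13 and Pex14 the log2 ratio was 1.13 ± 0.08 in Control and 1.13 ± 0.09 in PexRAP-AKO. Both docking transcripts thus kept nearly the same proportion to each other in both genotypes. The ratio of Pex2 to Pex10 was 1.52 ± 0.17 and 1.57 ± 0.16, and that of Pex6 to Pex26 was 2.07 ± 0.19 and 2.17 ± 0.09, each with overlapping groups.

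**Figure D3:**
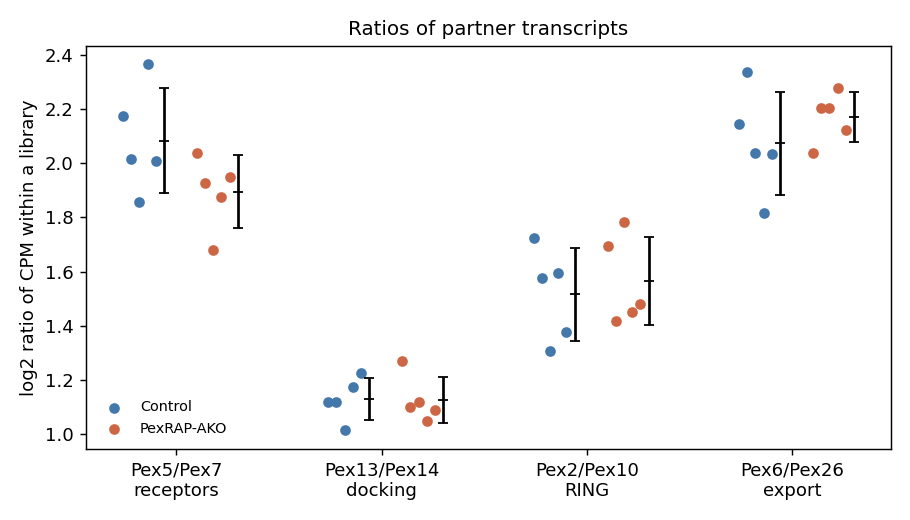
Log2 ratio of the CPM values of 2 partner genes within each library (y axis, not from 0) for Control (blue) and PexRAP-AKO (orange), with mean ± SD (n = 5) in black. The groups overlap in all 4 pairs, and the docking pair has the narrowest spread, at 1.13 ± 0.08 in Control.

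After subtraction of the genotype mean, members were compared with each other across the 10 libraries. Of 28 pairs, 18 had a positive Pearson's r, with a median of 0.17. The highest was between Pex5 and Pex13 (r = 0.83, exact permutation p = 0.00889, Benjamini-Hochberg adjusted p = 0.249 over 28 pairs, Spearman's rho = 0.806, exact permutation p = 0.0119, adjusted p = 0.333). Leaving out the 2 libraries farthest from the Pex5 median gave r = 0.826. The lowest was between Pex10 and Pex13 (r = -0.684, exact permutation p = 0.0474, adjusted p = 0.664, Spearman's rho = -0.709, exact permutation p = 0.0351), and r = -0.665 without the 2 farthest libraries. No pair passed after adjustment, and 2 of 28 did before it. The exact tests, two-sided, permuted libraries within genotype.

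Patterns over the 10 libraries were compared with the mean z-score of the 8 members for 10654 genes with a mean of at least 5 CPM. Members were left out, as were genes with names that start with Gm, end in Rik or ps, or hold -ps. Genotype means were not subtracted here, so differences between genotypes enter these r values. The most alike was Foxred1 (r = 0.96), followed by Atp5j (0.956), Sdha (0.95), Chchd2 (0.944) and D10Jhu81e (0.944). These values describe the best of many genes and carry no test. All 5 had positive fold changes, of 0.21 to 0.26, none past the threshold (edgeR adjusted p = 0.209 to 0.315). The mean z-score was highest in Control replicate 3 (0.603) and lowest in Control replicate 8 (-0.89), so both extremes were Control libraries. It was -0.252, -0.332 and -0.315 in Control replicates 2, 5 and 7. In PexRAP-AKO replicates 1, 2, 3, 5 and 6 it was 0.398, 0.44, -0.14, 0.223 and 0.266.

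Other peroxisome genes were read from the same fit. Beside the 8, a list of other matrix import genes held Pex5l, a receptor paralogue, the deubiquitinase Usp9x, Zfand6, which binds ubiquitinated Pex5, and the ubiquitin-conjugating enzymes Ube2d1, Ube2d2a and Ube2d3. Of these 6 genes, 0 passed by edgeR or DESeq2, where 0.101% and 2.94% of all genes did. An unadjusted edgeR p under 0.05 was found for 2 of the 6 and for 15.5% of all genes. Fold changes were positive for 3 and negative for 3, and the median log2 fold change was -0.002. Pex5l had the largest difference, averaging 2.47 ± 0.58 CPM among Controls and 1.54 ± 0.10 among PexRAP-AKO libraries (SD, n = 5 each, log2 fold change -0.68, edgeR adjusted p = 0.159), from 16 to 53 counts per library. Ube2d3 was at 0.15 (edgeR adjusted p = 0.315).

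Genes of membrane assembly and proliferation had 8 of 9 positive fold changes, where 49.8% of all genes had positive ones. Their median log2 fold change was 0.17, and that of all genes -0.0007. By edgeR 0 of 9 passed (0.101% of all genes), and 5 of 9 had an unadjusted p under 0.05 (15.5% of all genes). DESeq2 called 2 of the 9, Pex16 and Mff, and 2.94% of all genes. Pex16, which brings membrane proteins to the organelle, averaged 147.4 ± 17.8 CPM among Controls and 189.7 ± 7.60 among PexRAP-AKO libraries (SD, n = 5 each, log2 fold change 0.36, edgeR adjusted p = 0.0996). The fission factor Mff (0.22, edgeR adjusted p = 0.142), the fission GTPase Dnm1l (0.20, 0.2) and the membrane protein chaperone Pex19 (0.21, 0.258) did not pass either.

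Cargo of the receptors was read beside all genes tested, of which 49.8% had positive fold changes. Of 28 tested genes listed as Pex5 cargo (PTS1), 25 had positive fold changes, and the median log2 fold change was 0.17. An unadjusted edgeR p under 0.05 was found for 12, all higher in PexRAP-AKO, and for 9.01% of all genes in that direction. By edgeR 1 passed, against 0.101% of all genes, and by DESeq2 5, against 2.94%. Far1, a membrane-anchored protein that Pex5 does not import, was listed in error and stayed in these counts. The gene that passed was Nudt7, a coenzyme A hydrolase, which rose from 75.7 ± 8.84 to 112.2 ± 8.69 CPM (SD, n = 5 each, log2 fold change 0.57, edgeR adjusted p = 0.0243). The Nudt7 call held in 8 of 20 alternatives (log2 fold change 0.48 to 0.64). It was lost in edgeR (adjusted p = 0.0531 to 0.167) with total counts alone, either score covariate, the replicate block, PexRAP-AKO replicate 6 and Control replicate 8 both left out, or any 1 of Control replicates 2, 5, 7 and 8 or PexRAP-AKO replicates 2, 3 and 5 left out. Nudt19 (0.37), Mlycd (0.29) and Ehhadh (0.78) did not pass (edgeR adjusted p = 0.142, 0.166 and 0.175). Of the 4 Pex7 cargo genes (PTS2), 0 passed by edgeR, and 1, the thiolase Acaa1b, had an unadjusted p under 0.05 and was called by DESeq2. These counts stand beside the same shares of all genes. Acaa1b was at 0.69 (edgeR adjusted p = 0.112), while its near-identical copy Acaa1a was at 0.03, and reads can be split between these 2 genes. Agps, the ether lipid enzyme that Pex7 imports, averaged 70.7 ± 3.30 CPM among Controls and 73.8 ± 8.74 among PexRAP-AKO libraries (SD, n = 5 each, log2 fold change 0.06), and Phyh was at 0.03.

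**Figure D4:**
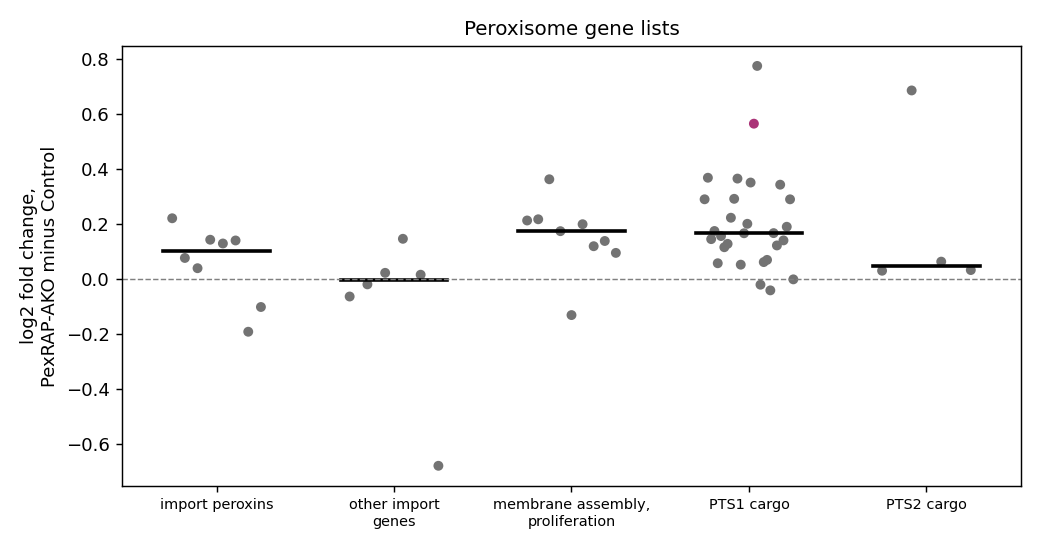
Log2 fold change of PexRAP-AKO against Control (y axis) for each tested gene of 5 peroxisome lists, with list medians as black bars, the median of all genes as a dashed line and the gene past the threshold, Nudt7, in purple. Import peroxins lie between -0.19 and 0.22, and cargo genes reach 0.78.

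Set against its receptor, the summed PTS1 cargo was 38.4 ± 1.47 CPM per CPM of Pex5 in Control (36.1 to 39.6) and 41.7 ± 2.91 in PexRAP-AKO (38.7 to 46.3, SD, n = 5 each). The ranges overlapped at their edges. The summed PTS2 cargo per Pex7 was 12.8 ± 1.42 in Control (11.8 to 15.1) and 11.9 ± 0.50 in PexRAP-AKO (11.1 to 12.3), and the ranges overlapped. Cat, which encodes catalase, made up 22.7% of the first sum and Acaa1a 35.5% of the second. These ratios were chosen after the values were seen and carry no test.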

How the data were processed

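The deposited table held raw read counts per gene, made by the authors with STAR 2.0.4b, Subread and featureCounts, with edgeR also named, per the submitters' processing notes. Build, annotation and strand setting are not stated in what was used here. The table's 40724 rows held 40501 identifiers, and the 117 identifiers found in more than 1 row, all with identical counts, were kept once, and coordinates came from GENCODE M21 (GRCm38) by identifier.

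Counts were filtered with filterByExpr (minimum count 10, minimum total 15), scaled by TMM and tested with edgeR 4.0.16 (R 4.3.3, quasi-likelihood F test, robust, 5 against 5, no covariate), adjusted by Benjamini-Hochberg over 14913 genes with a threshold of 0.05. Standard errors divide the log2 fold change by the root of F. A prior count of 2 was used for log2 CPM, and cell type scores are the mean log2 CPM of listed markers. Promoters are RefSeq's.

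Members, lists and the naming rule (the members, Dhrs7b, up to 4 genes per list by p or past the threshold, overlapping genes, the 5 most alike) were chosen with earlier results of these data known. Some genes of these lists are not reported here, and the counts leave them out. On simulated counts for these 14913 genes of PexRAP-AKO against Control, the test recovered 59.4% of genes changed 1.5-fold, 84.4% at 2-fold and 100% at 4-fold, with 8 false among 163 calls. The simulation held 200 changed genes and left out the quasi-likelihood spread of each gene, so these rates need not hold for the real libraries. No 2 libraries of a group agreed within counting noise (lowest chi-square per degree of freedom 7.08). Alternatives were other scalings, no filter, DESeq2 1.42.0, limma 3.58.1 voom, score covariates, a replicate block and libraries left out.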

Additional observations from a re-analysis of the deposited data

Results flagged for a closer look

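One library lay far from the rest in 5 of 64 groups of 5 values, where chance gives about 3.2 (1 in 20). No member of the import machinery was among them. On the log2 CPM scale, Control replicate 3 was high for Pex16 (7.48, the others 7.06 to 7.18) and for the Pex5 cargo Nudt7 (6.51, the others 6.12 to 6.21). PexRAP-AKO replicate 6 stood high for the Pex7 cargo Agps (6.48, the others 6.08 to 6.17) and in T cell score (3.64, the others 0.25 to 1.14). Control replicate 5 was low in white adipocyte score (10.79, the others 11.07 to 11.15).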

How the results depend on the processing

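In 20 alternatives each, 0 of the 8 members passed at an adjusted p of 0.05, and Dhrs7b passed in 20 of 20 (log2 fold change -2.14 to -1.96). The lowest adjusted p of a member was 0.0907, for Pex7 without Control replicate 3. With all libraries, 0 of the 8 passed at a threshold of 0.1, for which the share of all genes is not given here. All members but Pex5 kept their sign, Pex7 at 0.15 to 0.29, Pex14 at 0.07 to 0.17, Pex26 at -0.26 to -0.17, Pex2 at 0.06 to 0.16, Pex13 at 0.07 to 0.19, Pex10 at 0.0025 to 0.14 and Pex6 at -0.19 to -0.04. The estimate of Pex5, near 0, turned to -0.030 with total counts alone, to -0.018 with the skeletal muscle score, to -0.040 with the replicate block and to -0.0003 without both PexRAP-AKO replicate 6 and Control replicate 8. Leaving out 1 library at a time gave Pex5 values of -0.012 (without Control replicate 5) to 0.090 (without Control replicate 3), and the cause was not tested. Total counts alone moved the median of all genes by -0.07. The replicate block could use numbers 2, 3 and 5. Samples with the same number deviated from their group means with correlations of -0.02, -0.08 and 0.36, and 1 of these 6 samples correlated best with its own number, so no pairing was assumed, and the block changed no call of a member. Over all genes the count called was 15, and 3 with the block, 439 with DESeq2, and 3 to 58 with 1 library left out. In the simulation 59.4% of 1.5-fold changes were recovered, a rate that need not hold for the real libraries. Smaller changes, as all those estimated for the members, are harder to call at this depth and number of libraries.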
